A study of Mus musculus with 2 samples.

Results

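The 10 genes described here are the imprinted growth regulators Igf2, H19, Cdkn1c, Plagl1, Grb10, Peg3, Kcnq1ot1, Nnat, Mest and Impact, found by Ensembl identifier among the 43346 genes of the deposited tables. They were chosen by name, and all 10 were present in both libraries. The study measured total RNA depleted of ribosomal RNA in newborn mouse forebrain (postnatal day 0, strain B6NTac;B6NCrl/Lap, males and females pooled), by stranded paired-end sequencing of RNA longer than 200 nt. There were 2 libraries, forming a single group with no second condition. Replicate 1 came from the forebrains of 15 mice and replicate 2 from a pool whose size the labels do not state, and both carry the same donor identifier although the labels describe separate isolates.

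An imprinted gene is transcribed mainly or only from the allele inherited from one parent, according to DNA methylation laid down in the germ line. Many imprinted genes act on fetal growth: in mouse, paternally expressed genes such as Igf2 and Mest tend to promote it, and maternally expressed genes such as H19, Cdkn1c and Grb10 tend to restrain it. In the brain some of them depart from this pattern, as Grb10 is transcribed from the paternal allele in neurons and Igf2 from both alleles in choroid plexus and meninges. The tables hold no values by allele, so parental origin was not measured here.

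The libraries held 62516003 and 65912060 estimated counts in replicates 1 and 2, of which the 10 genes held 0.215 and 0.340%. The short structural RNAs Rn7s1, Rn7s2 and Rn7sk held 73.0% of all TPM in replicate 1 and 64.7% in replicate 2, so levels are given as coding TPM, which is TPM (a level per transcript length) rescaled until protein-coding genes sum to 1000000. Markers of the telencephalon were present in replicates 1 and 2, with the cortical transcription factor genes Lhx2 at 84.8 and 79.6 coding TPM, Tbr1 at 36.8 and 41.5 and Emx1 at 40.3 and 24.7, and the interneuron factor gene Dlx1 at 77.8 and 70.6. With n = 2 every mean ± SD below rests on these libraries alone. The polymerase-amplified reads carry no molecular identifiers to tell copies apart, so the counting errors given may be too small. They come from the reads of each library and are not errors between animals. In bulk tissue fewer cells of a type cannot be told apart from less RNA per cell.

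The 10 genes were all detected at 1 coding TPM or more, in each library, and their median was 77.6 in replicate 1 and 115 in replicate 2. Nnat, which encodes a small membrane proteolipid of the endoplasmic reticulum, stood far above the rest at 4488 and 7025 coding TPM (5757 ± 1794, SD, n = 2), and ranked 6 among all protein-coding genes. Below it came Mest (229 ± 113), Igf2 (212 ± 91.4), H19 (171 ± 66.4), Peg3 (106 ± 39.0), Cdkn1c (86.1 ± 13.5), Grb10 (67.0 ± 14.5), Plagl1 (58.0 ± 45.0), Impact (45.6 ± 8.55) and Kcnq1ot1 (3.28 ± 0.247 coding TPM). Along that order the libraries' values did not overlap between Nnat and Mest or between Impact and Kcnq1ot1, and all other neighbours overlapped. Every member was the lower in replicate 1 by coding TPM, as were 65.4% of genes tested. The order of Grb10 and Plagl1, and that of Plagl1 and Impact, differed between the libraries.

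**Figure D1:**
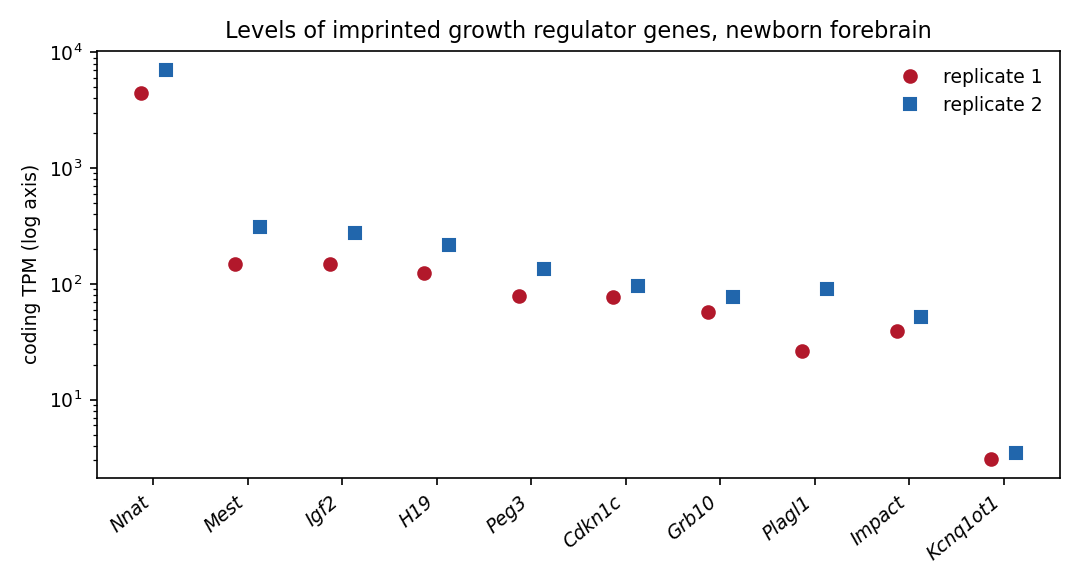
Level of each gene in each library, in coding TPM on a log axis, genes ordered by mean level; circles are replicate 1 and squares replicate 2. Nnat lies at 4488 and 7025, Kcnq1ot1 at 3.10 and 3.45, and every gene has the lower value in replicate 1.

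Igf2, the insulin-like growth factor that drives fetal growth, and the long noncoding RNA H19 lie beside each other on the minus strand of chromosome 7 and share enhancers. Igf2 (mm10 chr7:142650766-142666816) had 147 coding TPM in replicate 1 and 277 in replicate 2, from 5935 and 12978 counts. H19 (chr7:142575529-142578143) had 124 and 218 coding TPM, from 5420 and 10522 counts. Both genes were higher in replicate 2, and their ratio was close in the libraries, with Igf2 over H19 at 1.19 and 1.27. By counts per length of the longest annotated transcript, a measure added after the data were seen, H19 was the higher at 218 ± 86.3 against 125 ± 59.0 for Igf2, so their order depends on the transcript lengths used.

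Igf2 transcripts are annotated from several starts, and most reads went to one pair of them. Transcripts Igf2-201 and Igf2-202, starting at 142657496 and 142657466, held 50.2% of the gene's TPM in replicate 1 and 56.7% in replicate 2, and 77.9 and 80.1% of its counts. Igf2-208, a transcript of 958 nt that begins downstream at 142653030, held 48.1 and 40.1% of TPM but 18.6 and 14.2% of counts. It is annotated as a processed transcript and not as protein-coding. The starts at 142661205 to 142661305 held 0.48 and 1.36% of TPM, and the start at 142659489 held 1.04 and 1.35%. The most upstream start, at 142666816 (Igf2-203), was assigned 0 counts in both libraries. This is an estimate over shared reads, with a posterior SD (the authors' error of the estimate) of 1.85 and 1.46 counts. Low use of that start is not excluded. The antisense gene Igf2os overlaps the upstream starts and had 52 and 75 counts. The 250 bases before the main start and before the most upstream start are shown, to set an Igf2 promoter with assigned counts beside one without. They are given 5′ to 3′ on the minus strand, from RefSeq on GRCm38.p6 (the assembly of mm10). In this and the later promoters, capitals mark the GC box (the letters GGGCGG) or the CCAAT box, read on either strand; no match overlaps one of the other kind.
Igf2 before 142657496 (chr7:142657497-142657746): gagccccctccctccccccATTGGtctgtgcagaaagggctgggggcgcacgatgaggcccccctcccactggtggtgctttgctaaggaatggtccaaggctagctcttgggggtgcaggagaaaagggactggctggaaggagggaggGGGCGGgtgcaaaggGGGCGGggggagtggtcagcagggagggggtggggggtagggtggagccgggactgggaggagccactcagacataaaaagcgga
Igf2 before 142666816 (chr7:142666817-142667066): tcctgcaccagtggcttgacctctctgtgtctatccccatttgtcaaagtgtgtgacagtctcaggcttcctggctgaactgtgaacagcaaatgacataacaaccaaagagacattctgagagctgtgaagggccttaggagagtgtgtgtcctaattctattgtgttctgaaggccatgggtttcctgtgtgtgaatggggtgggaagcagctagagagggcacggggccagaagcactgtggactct
The first holds 6 CG dinucleotides, 2 GC boxes and 1 CCAAT box, and the second 1 CG and no match. The other Igf2 promoters, not shown, hold more CG than that of the main start. The promoter before 142658804 holds 22 CG and 1 GC box, and that before 142661271 holds 10 CG and no match. Over 32851 promoters of the same length, searched on both strands, the GC box occurred in 32.7%, the CCAAT box in 33.8% and the letters TATAAA in 12.4%, and the median number of CG was 6. TATAAA occurred in none of the 13 promoters found for 7 of the 10 genes (Grb10, Igf2, Kcnq1ot1, Mest, Nnat, Peg3 and Plagl1).

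The miRNA hairpins of 3 members were also annotated. miR-675 lies in an exon of H19, within transcripts that held 97.6% of H19 TPM in replicate 1 and 99.8% in replicate 2, whereas miR-483 in Igf2 and miR-335 in Mest lie in no exon of their hosts. All 3 hairpin entries had 0 counts and an effective length of 0. At 73 to 98 nt they are shorter than the mean fragment of 249 nt in replicate 1 and 270 nt in replicate 2. The libraries also took only RNA longer than 200 nt, so the miRNAs themselves were not measured. Their mature sequences (RefSeq, GRCm38.p6) are shown because the hairpins lie within the spans of members described here, on the same strand. Whether they share the members' transcription was not tested. Capitals mark the seed, bases 2 to 8.
mmu-miR-675-5p: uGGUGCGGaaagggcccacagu
mmu-miR-675-3p: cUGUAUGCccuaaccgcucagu
mmu-miR-483-5p: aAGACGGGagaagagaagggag
mmu-miR-483-3p: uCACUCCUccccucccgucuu
mmu-miR-335-5p: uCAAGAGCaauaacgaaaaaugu
mmu-miR-335-3p: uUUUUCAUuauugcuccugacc
No seed is shared among the 6.

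Among genes of the growth factor pathway, Igf2 exceeded its paralogue Igf1 by 16.3 in replicate 1 and 25.0 in replicate 2 as TPM ratios, with Igf1 at 9.01 and 11.1 coding TPM. It exceeded Igf2r, the receptor that clears the factor and is itself imprinted, by 5.57 and 7.99. Both ratios use the TPM of the whole Igf2 gene. They include Igf2-208, which is not annotated as protein-coding and held 48.1 and 40.1% of that TPM, so they overstate its coding transcripts. The signalling receptors Igf1r and Insr stood at 35.6 ± 2.05 and 30.5 ± 6.12 coding TPM, and the mRNA-binding proteins Igf2bp1, Igf2bp2 and Igf2bp3 at 3.01 ± 0.179, 11.3 ± 0.555 and 7.43 ± 1.11. Of the neighbours at the locus, Ins2 and Nctc1 had 0 counts in both libraries, which allows up to 3 counts in each. Mrpl23, a mitochondrial ribosomal protein gene, had 50.7 ± 21.8 coding TPM, Th, the first enzyme of dopamine synthesis, 11.4 ± 5.26, and Tnnt3, a muscle troponin, 1.39 ± 0.288.

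Grb10 encodes an adaptor that binds the insulin and insulin-like growth factor receptors and restrains their signalling. It lies on the minus strand at chr11:11930508-12038683 and had 56.8 coding TPM in replicate 1 and 77.2 in replicate 2, from 4967 and 7880 counts. Its transcript shares were led by Grb10-201, of 17 exons, which starts at 12037401 and held 60.5 and 64.2% of the gene's TPM (62.3 ± 2.63%). Grb10-203, of 16 exons from the start at 12027971, held 16.8 and 23.6%. The first of these starts took 73.1 and 72.5% of the gene's counts, and the second 943 and 1968 counts. Grb10-209, a transcript of 940 nt from 12026324, held 9.99 and 9.30% of TPM on 86.2 and 116 counts. Grb10-202 held 9.65% in replicate 1 and 0% in replicate 2. These are estimates over shared reads, from 217 and 0 counts with a posterior SD of 47.7 and 18.7 counts. The starts were not assigned to the maternal or paternal promoters, since no allele was read.
The promoters before both main starts (minus strand, RefSeq, GRCm38.p6) are shown for their contrast in base composition.
Grb10 before 12037420 (chr11:12037421-12037670): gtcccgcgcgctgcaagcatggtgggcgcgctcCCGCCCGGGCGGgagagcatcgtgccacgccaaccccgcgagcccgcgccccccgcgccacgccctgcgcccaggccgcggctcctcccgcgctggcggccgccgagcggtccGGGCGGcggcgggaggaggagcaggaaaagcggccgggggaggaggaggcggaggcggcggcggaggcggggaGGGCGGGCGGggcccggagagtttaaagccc
Grb10 before 12027971 (chr11:12027972-12028221): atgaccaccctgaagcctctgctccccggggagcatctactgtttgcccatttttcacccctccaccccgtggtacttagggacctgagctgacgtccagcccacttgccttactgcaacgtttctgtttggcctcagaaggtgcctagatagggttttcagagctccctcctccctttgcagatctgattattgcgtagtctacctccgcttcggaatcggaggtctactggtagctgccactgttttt
The first, whose RefSeq start lies beside that of Grb10-201, holds 40 CG, more than 98.7% of all promoters, and 5 GC boxes. The second holds 8 CG and none of the motifs.
Grb10 exceeded its paralogue Grb14 by TPM ratios of 2.95 and 3.44, and Grb7, the remaining paralogue, had 1.55 ± 0.629 coding TPM. The insulin receptor substrates Irs1 and Irs2 had 37.6 ± 8.39 and 37.2 ± 6.19. Over its neighbours, Grb10 was higher by 8.18 and 5.91 relative to Ddc, which encodes the decarboxylase of dopamine and serotonin synthesis, and by 3.66 and 4.61 relative to Cobl, an actin nucleator. Fignl1, a DNA repair gene, stood at 5.85 ± 1.80 coding TPM.

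Cdkn1c encodes p57, an inhibitor of cyclin-dependent kinases that halts the cell cycle, and Kcnq1ot1 is the long RNA of the same imprinted domain, whose transcription from the paternal allele silences Cdkn1c in cis. Cdkn1c (chr7:143458339-143461050, minus strand) had 76.6 coding TPM in replicate 1 and 95.6 in replicate 2, from 2770 and 3739 counts, and Cdkn1c-201 held 91.1 and 95.2% of its TPM. Kcnq1ot1 (chr7:143203458-143296549, minus strand), with 1 annotated transcript of 84395 nt, had 3.10 and 3.45 coding TPM. It drew more reads than Cdkn1c, 5723 and 6983 counts, over a far greater length. Per length Cdkn1c was higher by 24.7 and 27.7.
The related inhibitors differed in their place: Cdkn1c exceeded Cdkn1a by TPM ratios of 5.03 and 5.09 in the libraries, and stood at 0.817 and 1.15 relative to Cdkn1b, on either side of equality. The kinase gene Cdk2 had 7.91 ± 0.720 coding TPM and its cyclin Ccne1 8.41 ± 1.46.
Inside the domain the placental growth restrainer Phlda2 had 5 counts in replicate 1 and 0 in replicate 2, and Ascl2, a placental transcription factor, had 15 and 1. The potassium channel gene Kcnq1, which Kcnq1ot1 overlaps on the opposite strand, had 44 and 63 counts. Kcnq1ot1 exceeded Kcnq1 by TPM ratios of 4.20 and 3.62, but the authors' posterior mean TPM gave a mean ratio of 0.857, so their order was not settled. The transporter gene Slc22a18 had 20 and 51 counts. By contrast Cd81 had 370 ± 47.1 coding TPM, Nap1l4 176 ± 11.6, Tssc4 74.8 ± 10.6 and Osbpl5 39.6 ± 3.97. The labels describe stranded libraries, but the strand setting of the counting is not stated, so reads of overlapping genes (Kcnq1ot1 and Kcnq1, Nnat and Blcap, Mest and Copg2, Igf2 and Igf2os) may not be fully separated.

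Plagl1 and Peg3 encode zinc finger proteins: Plagl1 is a transcription factor that regulates other imprinted genes in mouse, and Peg3 a large DNA-binding protein linked in mouse to growth and maternal behaviour. Plagl1 (chr10:13060504-13131694, plus strand) had 978 counts in replicate 1 and 2344 in replicate 2, the fewest of the 10 genes in both. Its level was 26.1 and 89.8 coding TPM, the widest relative spread of the 10. The difference in TPM (log2 ratio of replicate 1 over replicate 2, -1.78) exceeded that in scaled counts (-0.98). The mean transcript length assigned to the gene was 1954 nt in replicate 1 and 1354 nt in replicate 2. Transcripts under 500 nt took 29.8 and 58.8% of its TPM. The leading transcript by TPM was in replicate 1 Plagl1-202, of 5260 nt, with 28.1%, and in replicate 2 Plagl1-205, of 424 nt, with 32.7% on 109.6 counts. Plagl1-205 had 0 counts in replicate 1. By counts Plagl1-202 led in both, with 82.5 and 82.0%. The authors' deposited bounds, on the coding TPM scale, were 26.9 to 37.3 in replicate 1 and 87.4 to 108 in replicate 2. The level of 26.1 in replicate 1 thus lay below its own lower bound. Counts per length of the longest transcript gave 12.3 and 27.0, so the level of Plagl1 depends on how its short transcripts are counted. Its RefSeq promoter, before 13090832, holds 19 CG and 2 GC boxes. Its neighbours Phactr2 and Ltv1 had 8.16 ± 2.46 and 13.5 ± 0.549 coding TPM.

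Peg3 (chr7:6703892-6730431, minus strand) had 78.6 coding TPM in replicate 1 and 134 in replicate 2, from 12970 and 24479 counts. Peg3-201, of 8694 nt, held 80.7 and 82.6% of its TPM, and Peg3-204, annotated as a retained intron, 14.9 and 13.4%. The gene shares a promoter region with Usp29, transcribed the other way, and exceeded it by TPM ratios of 1.98 and 2.10. It exceeded its neighbour Zim1, a maternally expressed zinc finger gene, by 5.76 and 7.12. These ratios moved less than the levels of Peg3 itself did. The promoter before 6730419 holds 8 CG and 2 CCAAT boxes. Trim28 and Zfp57, which maintain methylation at imprinted regions, had 440 ± 37.6 and 207 ± 9.35 coding TPM, and Siah1a, a ubiquitin ligase that binds Peg3 protein, had 90.6 ± 4.44.

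Nnat lies on the plus strand at chr2:157560078-157562522, inside an intron of Blcap on the other strand, and had 87565 counts in replicate 1 and 140231 in replicate 2. It exceeded Blcap by TPM ratios of 27.9 and 35.1, with Blcap at 161 and 200 coding TPM. Of 10 annotated transcripts, Nnat-205 led with 61.4 and 63.2% of TPM (62.3 ± 1.28%), followed by Nnat-202 with 31.6 and 25.4%. Nnat-206, of 404 nt, held 1.70 and 7.14%. The leading transcripts differ by one coding exon of 81 nt (27 codons) at chr2:157561213-157561293, the long and short forms of neuronatin known as alpha and beta. Transcripts with this exon held 32.5% of TPM in replicate 1 and 26.4% in replicate 2, and transcripts that skip it held 64.2 and 70.9%. By counts the shares were 34.9 and 29.5% with the exon, against 62.6 and 68.1% without it. The shorter form thus led in both libraries on either measure. The exon is shown with 15 bases of its neighbours on each side, in capitals within Nnat-202, and below it the junction that replaces it in Nnat-205 (GENCODE M21 transcripts, plus strand).
Nnat-202: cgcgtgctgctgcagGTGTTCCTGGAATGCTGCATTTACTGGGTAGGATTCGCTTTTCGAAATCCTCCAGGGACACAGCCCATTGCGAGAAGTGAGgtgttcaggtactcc
Nnat-205: cgcgtgctgctgcaggtgttcaggtactcc
Almost all Nnat transcription was assigned to starts between 157560078 and 157560140, with 99.8 and 99.9% of counts. The promoter before 157560078 holds 12 CG and none of the motifs searched. Atp2a2, the calcium pump that neuronatin is reported to regulate, had 166 ± 30.6 coding TPM. Of the flanking genes, Ctnnbl1 had 45.2 ± 4.36, while Ghrh, the growth hormone releasing hormone gene, had 9 and 8 counts.

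**Figure D2:**
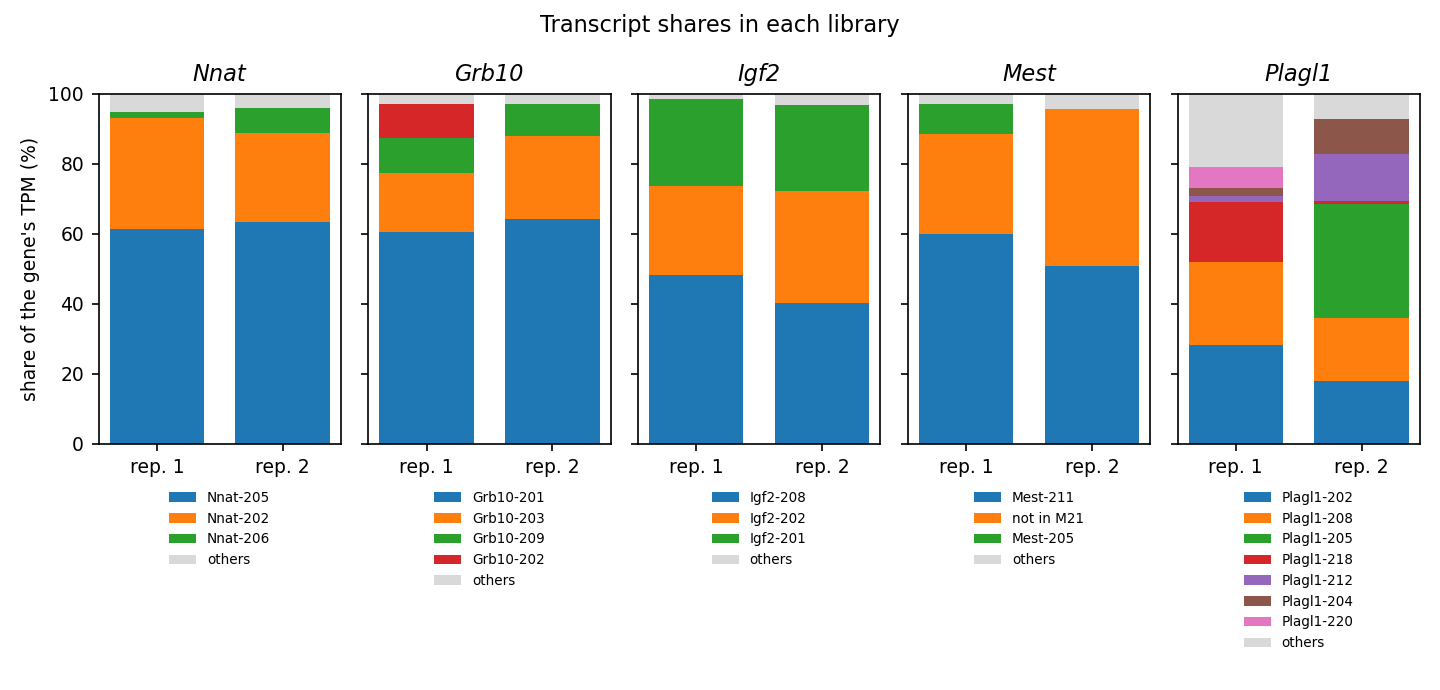
Share of each gene's TPM held by its annotated transcripts, as stacked bars that sum to 100%, in replicate 1 (left bar) and replicate 2 (right bar); transcripts with at least 5% in either library have a colour. Nnat-205 leads at 61.4 and 63.2% and Grb10-201 at 60.5 and 64.2%, while the leading Plagl1 transcript differs between the libraries.

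Mest encodes an enzyme-like protein of the alpha/beta hydrolase family and lies on the plus strand at chr6:30723547-30748465. It had 149 coding TPM in replicate 1 and 309 in replicate 2, from 5189 and 10690 counts. Mest-211 held 59.9 and 50.8% of its TPM, and a transcript of 836 nt listed in the deposited tables but not in GENCODE M21 held 28.6 and 44.6%. Mest-205, only 467 nt long, had 8.51% in replicate 1 but 0% in replicate 2, from 61.1 and 0 counts (posterior SD 12.7 and 1.81 counts). The starts at 30738050 to 30738055 took 87.6 and 81.1% of counts. The upstream starts at 30733454 to 30733506, 30731968 and 30723547 were assigned 0 counts in both libraries. These are estimates over shared reads, with a posterior SD of 3.97 and 2.08 counts for Mest-210 at 30733506. The transcript absent from GENCODE M21 held 551 and 1879 counts. Its start is not known here, so those counts were given to no start, and use of an upstream start is not excluded. The promoters of the start with most counts and of an upstream start assigned 0 counts (plus strand, RefSeq, GRCm38.p6) are set side by side.
Mest before 30738050 (chr6:30737800-30738049): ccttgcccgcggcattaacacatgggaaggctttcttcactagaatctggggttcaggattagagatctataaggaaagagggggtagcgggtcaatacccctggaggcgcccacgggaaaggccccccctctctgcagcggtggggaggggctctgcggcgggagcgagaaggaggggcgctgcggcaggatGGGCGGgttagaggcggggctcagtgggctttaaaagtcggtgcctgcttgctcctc
Mest before 30733506 (chr6:30733256-30733505): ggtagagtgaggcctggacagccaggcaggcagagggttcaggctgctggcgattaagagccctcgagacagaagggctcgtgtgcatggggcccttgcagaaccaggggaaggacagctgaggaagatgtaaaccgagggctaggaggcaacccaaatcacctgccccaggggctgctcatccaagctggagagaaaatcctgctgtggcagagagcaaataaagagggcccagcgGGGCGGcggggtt
They hold 14 and 7 CG, and each has 1 GC box.
Mest exceeded Copg2, a coat protein gene whose 3′ end overlaps its own, by TPM ratios of 2.16 in replicate 1 and 4.25 in replicate 2. Copg2 itself had 69.1 and 72.7 coding TPM, so the ratio moved with Mest. Of the other neighbours, Cep41 had 11.7 ± 2.69 coding TPM, and Klf14, an intronless transcription factor gene, had 33 and 60 counts.

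Impact, on chromosome 18, encodes an inhibitor of the kinase GCN2 (gene Eif2ak4), which slows translation when amino acids run short. It had 39.6 coding TPM in replicate 1 and 51.7 in replicate 2, from 2765 and 3932 counts over 1 annotated transcript. Impact exceeded Eif2ak4 by TPM ratios of 2.98 and 3.28 and stood at 0.734 and 0.687 relative to Gcn1, the activator of that kinase which it competes for. The kinase's target Eif2s1 had 52.3 ± 1.11 coding TPM and the downstream factor Atf4 151 ± 1.90. At its locus Hrh4 had 0 counts in both libraries, Osbpl1a had 130 and 74.5 coding TPM, and Cabyr had 41 and 75 counts.

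**Figure D3:**
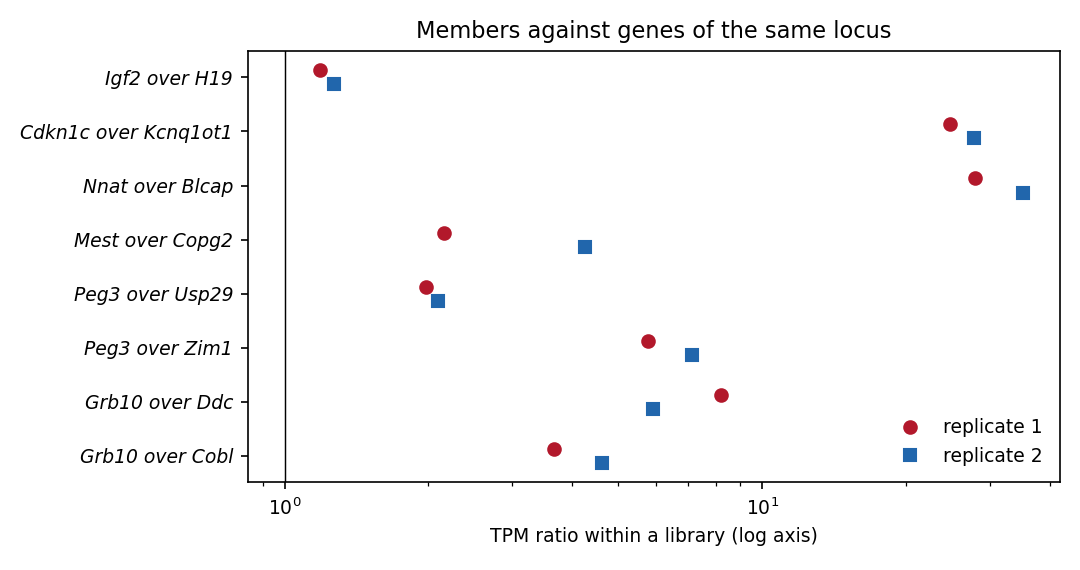
TPM ratio within each library for 8 pairs of a member over another gene of its locus, on a log axis, pairs with Kcnq1 not plotted; circles are replicate 1, squares replicate 2, and the line marks equality. The plotted ratios run from 1.19 and 1.27 for Igf2 over H19 to 27.9 and 35.1 for Nnat over Blcap. These 8 chosen pairs lie above equality by the deposited TPM, while Igf2 over H19 turns below it by counts per longest transcript. Other genes of the loci were not plotted, and some exceeded their member. Cd81 (337 and 404 coding TPM) and Nap1l4 (185 and 168) exceeded Cdkn1c (76.6 and 95.6), and Osbpl1a (130 and 74.5) exceeded Impact (39.6 and 51.7).

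The libraries were compared to see how far the isolates differ at these genes, on counts scaled by TMM (a scaling that centres most genes), with a two-sided exact binomial test adjusted by Benjamini-Hochberg over 17544 genes. It sets the reads of one sequenced sample against those of the other, and not conditions or animals. A gene was called at an adjusted p under 0.05 and a difference of at least 2-fold. None of the 10 members was called, where 10.4% of genes tested were (5.51% lower in replicate 1 and 4.94% higher); among genes averaging at least 100 counts, as all members did, 2.77% were called. At 1.5-fold, 5 members were lower in replicate 1 (Mest, Igf2, H19, Peg3 and Plagl1) and 0 higher, where 9.86% of genes were lower and 9.95% higher. The adjusted p alone was under 0.05 for 9 of 10 members, and for 65.4% of all genes.

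All 10 log2 ratios of replicate 1 over replicate 2 were below 0, as for 49.8% of genes tested, although that of Kcnq1ot1 (-0.01, SE 0.03) became 0.21 once a trend over transcript length and GC content was removed. The members' median was -0.52, against 0.00 for all genes. Plagl1 had the lowest ratio, -0.98 (SE 0.05), which is 1.97-fold lower in replicate 1. It was followed by Igf2 at -0.85 (SE 0.02), Mest at -0.76 (SE 0.02), H19 at -0.68 (SE 0.02) and Peg3 at -0.64 (SE 0.02). Nnat had -0.40 (SE 0.01), Grb10 -0.39 (SE 0.03), Impact -0.23 (SE 0.04) and Cdkn1c -0.15 (SE 0.04). The exact test's adjusted p was 5.5e-05 for Cdkn1c and 0.81 for Kcnq1ot1. SE here is counting error. Igf2 at -1.05 and Plagl1 at -1.18 passed 2-fold when counts were scaled by library totals alone, a scaling that moved the median of all genes to -0.19 and under which 66.6% of calls were lower in replicate 1, against 52.7% with TMM. With the length and GC trend removed, 9 of 10 members lay below the median of all genes.

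**Figure D4:**
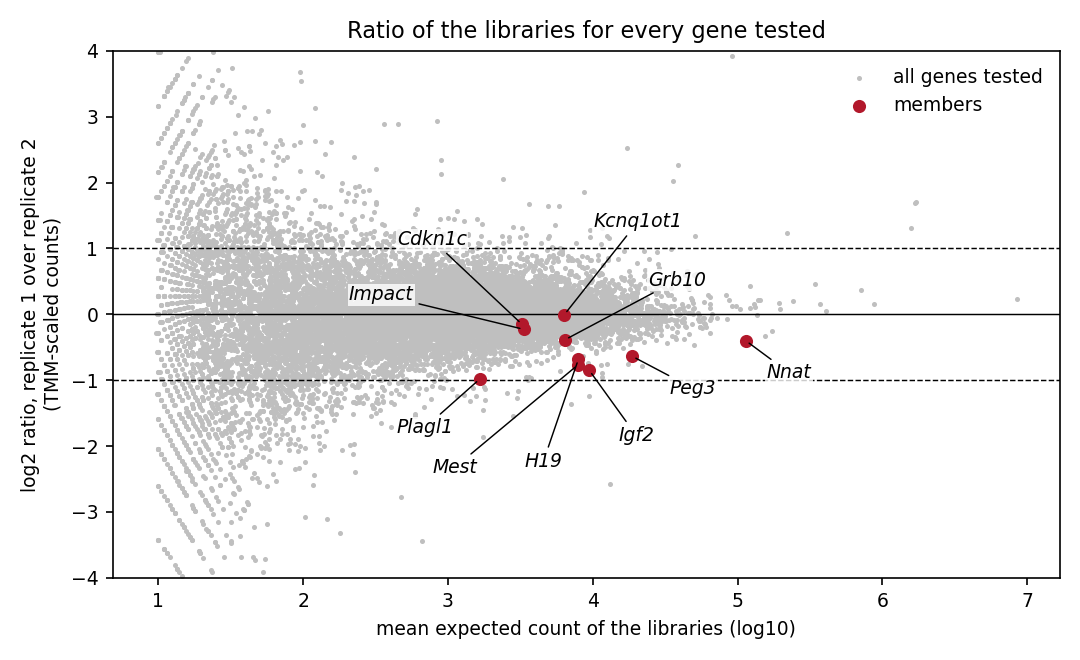
Log2 ratio of replicate 1 over replicate 2 against the mean expected count (log10) for the 17544 genes tested (grey) and the 10 members (red); dashed lines mark 2-fold, and 164 genes lie beyond the axis. All members lie below 0, Plagl1 lowest at -0.98 and none past the 2-fold line, and Kcnq1ot1 moves to 0.21 with the length and GC trend removed.

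Partner genes and other imprinted genes were read from the same test. Of 24 locus partners tested 1 was called, Slc22a18 (-1.05, adjusted p 0.0073 by the exact test), with a median ratio of -0.24, where 10.4% of all genes tested were called. Of 23 signalling partners 0 were called, with a median of -0.15, and 15 had an adjusted p under 0.05 by the exact test at any size, a share near the 65.4% of all genes. Osbpl1a, beside Impact, had the highest ratio among the locus partners, 0.99. In a list of 49 other imprinted genes, 48 were matched and 43 tested, of which 35 had ratios below 0 (49.8% of all genes did) and the median was -0.28. The 6 called, all lower in replicate 1 as were 5.51% of all genes, were Calcr (-1.41), Peg10 (-1.36), Dio3 (-1.33), Asb4 (-1.14), Magel2 (-1.12) and Slc22a18. The highest of these genes by level were the noncoding Rian (2276 ± 258 coding TPM), Gnas (1309 ± 205) and Ndn (1009 ± 292), all below Nnat, and Ins2 and Snurf had 0 counts. Snurf lies within the span of Snrpn on the same strand, and Snrpn had 14327 and 15314 counts. Whether reads of Snurf were assigned to Snrpn was not tested, so the 0 does not show that Snurf was silent. Some of the partner genes are also in this list.

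Markers of other cells and regions moved between the same libraries. Over all genes tested, 5.51% were called lower in replicate 1 and 4.94% higher, and 2.77% either way at a mean of at least 100 counts. Meningeal fibroblast markers, of which 3 of 9 were called, all lower in replicate 1, summed to 251 coding TPM in replicate 1 and 693 in replicate 2, with a median ratio of -0.60. Most of both sums was from the collagen genes Col1a1 (25.6 and 171), Col1a2 (61.3 and 243) and Col3a1 (66.0 and 143 coding TPM). The ratios of the 9 ran from -2.57 for Col1a1 to 0.30 for Foxd1, with 8 below 0, among them Slc6a13 at -0.03. Cartilage and bone markers, with 4 of 5 tested called lower, summed to 12.7 and 58.5 (median -1.64). Hypothalamus markers, with 5 of 9 tested called lower, summed to 98.7 and 121 (ratios -2.71 to 0.35). Most of those sums was Avp, at 84.5 and 88.6 with a ratio of 0.17. The opposite direction was seen for choroid plexus (2 of 8 called higher in replicate 1, sums 759 and 488), skeletal muscle (4 of 6 higher, sums 31.7 and 16.0) and erythroid markers (1 of 5 higher, sums 2511 and 1812). Ttr, which was not called, held 713 and 446 of the choroid plexus sums. No marker was called among 6 neuronal (sums 6964 and 6744), 8 progenitor (2142 and 2174), 6 endothelial (221 and 283) and 5 pericyte markers (86.5 and 119). Of the 8 telencephalic markers 0 were called and 4 had ratios below 0, with a median of 0.03. Emx1 (ratio 0.84) was higher in replicate 1 by less than 2-fold. Dlx1 (ratio -0.52) was lower there by scaled counts, though not by coding TPM. None of these markers was at 0 in both libraries. The part of these cells and regions in the members' ratios was not tested.

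**Figure D5:**
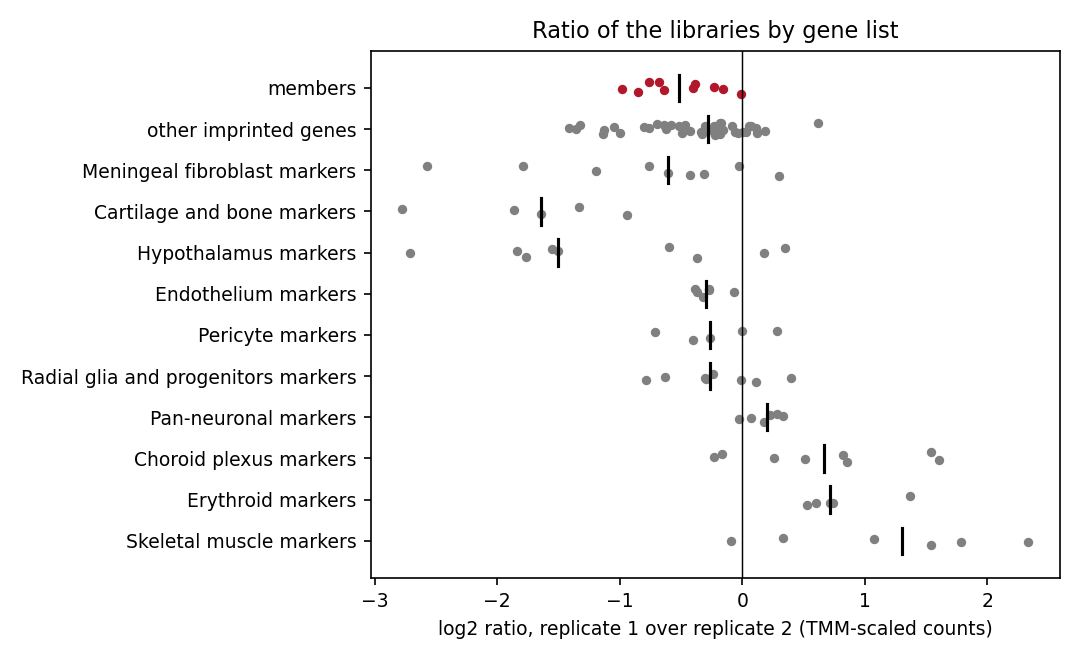
Log2 ratio of replicate 1 over replicate 2 for each tested gene (point) of each list shown, with the list's median as a black bar. The 10 members are red. The telencephalon markers and the locus and signalling partners are not plotted. The members' median is -0.52, that of meningeal fibroblast markers -0.60 and that of choroid plexus markers 0.66.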

How the data were processed

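Levels were read from the gene and transcript tables of 2 libraries, quantified by the authors per library on mm10 with GENCODE M4, per the text files accompanying the samples. Which aligner and quantifier they used is not stated in the sources used here. The authors deposited expected counts and posterior mean counts (not normalized), TPM over all features including spike-ins, FPKM by effective length, and each transcript's percent of its gene's TPM. The deposited posterior SD of counts and TPM interval bounds were used as given, and the level of the bounds is not stated. Identifiers were matched to GENCODE M21 on the same assembly (42462 of 43346 genes, 98.0%) for symbols, starts and exons.

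Coding TPM multiplies TPM by 7.38 in replicate 1 and 4.54 in replicate 2. Expected counts were rounded, 0.5 was added for ratios, and libraries were scaled by TMM factors from edgeR 4.0.16 (R 4.3.3), with DESeq2 1.42.0 size factors as an alternative. Genes averaging 10 counts or more were tested by an exact binomial test (scipy 1.17.1), since 1 group leaves no contrast for edgeR's quasi-likelihood test. The test was tried on simulated counts without variation between isolates and with every change above 2-fold. That trial cannot show how the test behaves on isolates that vary or near the 2-fold threshold. With 2 libraries, SDs rest on 2 values. All members, their locus and signalling partners, the 3 highest and the lowest other imprinted genes and those called, and transcripts with at least 5% are named by rule. The members and all lists were chosen with earlier results of these data known. Promoters and miRNAs are from RefSeq (GRCm38.p6). The partners Hymai, Peg3os, Zfp264 and Zim3 and the imprinted gene Peg13 had no match by symbol and were not analysed here. Some markers of the telencephalon list are not reported here.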

Additional observations from a re-analysis of the deposited data

How the results depend on the processing

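The number of members called at 2-fold was 0, and it stayed 0 with DESeq2 size factors, posterior mean counts, no count filter, a mean of at least 100 counts and a 3-fold threshold. It was 2 with library totals (Igf2 and Plagl1), 1 with the total over protein-coding genes (Plagl1, -1.02), 2 with the length and GC trend removed (Igf2 at -1.09 and Plagl1 at -1.29) and 5 at 1.5-fold; the cause was not tested. The trend correction also reversed Kcnq1ot1, to 0.21. Genes called numbered 1833, against 2752 without a filter, 379 at a mean of at least 100 counts, 3475 at 1.5-fold and 959 at 3-fold. The number of members at 1 coding TPM was 10, and 9 by TPM as deposited or at a threshold of 5. Their median level was 96.2 coding TPM, 17.9 by TPM as deposited (a change of scale), and 77.6 to 115 leaving out a library. The leading Nnat share of 62.3% was 65.9% over transcripts of at least 500 nt and 64.4% by counts, and 61.4 to 63.2% leaving out a library. The leading Grb10 share of 62.3% was 72.8% by counts and 60.5 to 64.2% leaving out a library. The Igf2 share from its main start, 53.4% of TPM, was 79.0% by counts, an alternative chosen after seeing the data, as was the level by longest transcript. Ratios between the libraries cannot be had without either library. No paired analysis was possible because there is only 1 group. The precision with more libraries or less depth was not tested.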
